A study of Homo sapiens with 16 samples.

Results

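The comparison set 2 cultures of OCI-AML2, an established human acute myeloid leukaemia cell line, against each other: PNPase-knockdown replicate 545 and PNPase-knockdown replicate 1717. Each was sampled on days 3, 4, 5 and 6, so 8 of the 16 samples of the series belong to the comparison, chosen by the replicate numbers and days in the labels. Both cultures were grown in IMDM with 10% FBS, antibiotics included, and both carried a short hairpin RNA construct against PNPase, an exoribonuclease of mitochondria encoded by PNPT1. The other 8 samples came from cells with a hairpin against SUV3, the helicase that works with PNPase, in replicates 1595 and 1727 on the same days. The submitters describe the replicates of each knockdown as biological. The sources used here do not say what these numbers mean, so cultures that differ in number may also differ in hairpin construct. PNPT1 itself and control cells were not analysed here, and therefore the depth of the knockdown in each culture is unknown.

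OCI-AML2 cells are blocked part of the way along the monocytic and granulocytic lineage. In normal blood cells that mature along this lineage, the calcium-binding alarmins S100A8 and S100A9, the integrin chain CD11c (ITGAX), the scavenger receptor CD36 and the fractalkine receptor CX3CR1 accumulate, whereas genes of immature cells are lost. The same surface proteins let myeloid cells adhere, take up lipids and debris, and respond to inflammatory signals.

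Transcripts of 579 immune genes and 15 housekeeping genes were read on a panel that counts fluorescent barcodes bound to each RNA. Totals per sample ranged from 311396 in culture 1717 on day 3 to 493370 in culture 1717 on day 6. In these samples the mean of the 8 negative probes was 7.23 and their SD 3.39, and 346 of 594 genes exceeded 14.01, the mean plus 2 SD. All levels below are log2(value + 1) after scaling on the 15 housekeeping genes, and a difference is 545 minus 1717 on that scale, so folds of weak genes are understated. The factor divided out lay between -0.10 and 0.41 (log2) in culture 545 and between -0.51 and 0.51 in culture 1717, lowest on day 3 in both. After scaling, the housekeeping genes themselves still differed between the cultures by -0.34 to 0.39, with a median of -0.02. Of these 15 genes, 12 had a difference of 1 sign on every day, 4 did not overlap between the cultures, and 7 passed the trended fit described below, 5 as higher and 2 as lower. Each arm is 1 culture followed over 4 days, so every p below measures the difference against its spread between days and not between independent cultures. RNA came from whole cultures, in which fewer cells of a type and less RNA per cell cannot be told apart.

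ITGAX, CD36, S100A8 and ARG1 were the genes above the negative controls with the widest mean differences, and all 4 were higher in culture 545 on every day. Of the 346 genes above the negative controls, 196 (56.6%) had a difference of 1 sign on every day, 109 (31.5%) higher in 545 and 87 (25.1%) lower. The 4 values of one culture lay wholly above or below those of the other for 87 genes (25.1%), of which 53 (15.3%) were higher in 545 and 34 (9.83%) lower. At least 1.5-fold on every day separated 18 genes (5.20%), a level chosen after the values were seen. Leaving out a day can only keep or raise such a count, and the 18 genes stay in it by rule. It was 41 without day 3 and 42 without day 6. With no scaling or with scaling on the positive controls 15 of the 18 stayed past the level, and 16 with samples centred on the median gene. ITGAX, CD36, S100A8, S100A9, CX3CR1, IL23A, IL22RA2, ICAM3, CD48, CD244, ITGB2, FCGRT, FCER1G and CD276 were the 14 (4.05%) on the higher side of culture 545, and ICAM2, TNFAIP3, CD45RA and CD44 the 4 (1.16%) on the lower side. That split was 20 higher and 1 lower among the genes past the level after scaling on the positive controls, and 12 and 9 after median centring. At least 2-fold on every day separated 7 genes (2.02%), all higher in 545, and 0 (0%) lower. They were ITGAX, CD36, S100A8, IL23A, ICAM3, CD48 and IL22RA2, which was above the negative controls through culture 545 only. In all, 9 of the 346 genes had a mean at or under the limit in 1 of the cultures and had to differ in that direction. The count of 7 was 13 without day 3 or without day 6, and 2, ITGAX and CD36, with every sample centred on its median gene. The smallest daily difference inside the 1.5-fold level was 0.60, for FCER1G, and the nearest gene outside it was ARG1 at 0.58.

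With day as a block, limma called 0 of 594 genes (0%) at an adjusted p of 0.05. The smallest adjusted p was 0.0529, shared by 11 genes, and 94 genes were below 0.1. Other choices of scaling, pseudocount, background or samples gave 30 to 126 calls in the same test, and leaving out any 1 day gave 0. Without adjustment 173 genes (29.1%) were below 0.05, among them 147 (42.5%) of those above the negative controls. Another fit, limma with a prior variance that follows the mean level (the trended fit), called 136 genes (22.9%), with 87 (14.6%) higher in 545 and 49 (8.25%) lower. Of all the choices taken singly, it gave the most calls and is thus the most permissive. The list counts below rest on the trended fit, although the main test, limma without the trend, called 0 genes for 545 against 1717. A gene that passes the trended fit below therefore did not pass the main test. Among the genes above the negative controls the trended fit called 133 (38.4%), 87 (25.1%) higher and 46 (13.3%) lower. These shares are the background for each count of trended calls below. Differences between -0.34 and 0.39 lie within the span of the housekeeping genes, of which 7 of 15 passed the same fit. This limit holds for every passing gene below with a difference inside that span. Without day 4 the trended fit called 39 genes and without day 5 it called 70, with 17 and 18 of the 18 genes among them. Centring every sample on the median gene in place of the housekeeping genes turned that balance, with 52 higher and 103 lower of 155 calls. That scaling moved the median difference of all genes from 0.03 to -0.14. The 18 genes at least 1.5-fold apart were called under it too. They were chosen for wide differences in these same samples, so their calls in any of these fits add no separate support. For a single gene, an exact sign-flip test over 4 days cannot go below a p of 0.125.

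**Figure D1:**
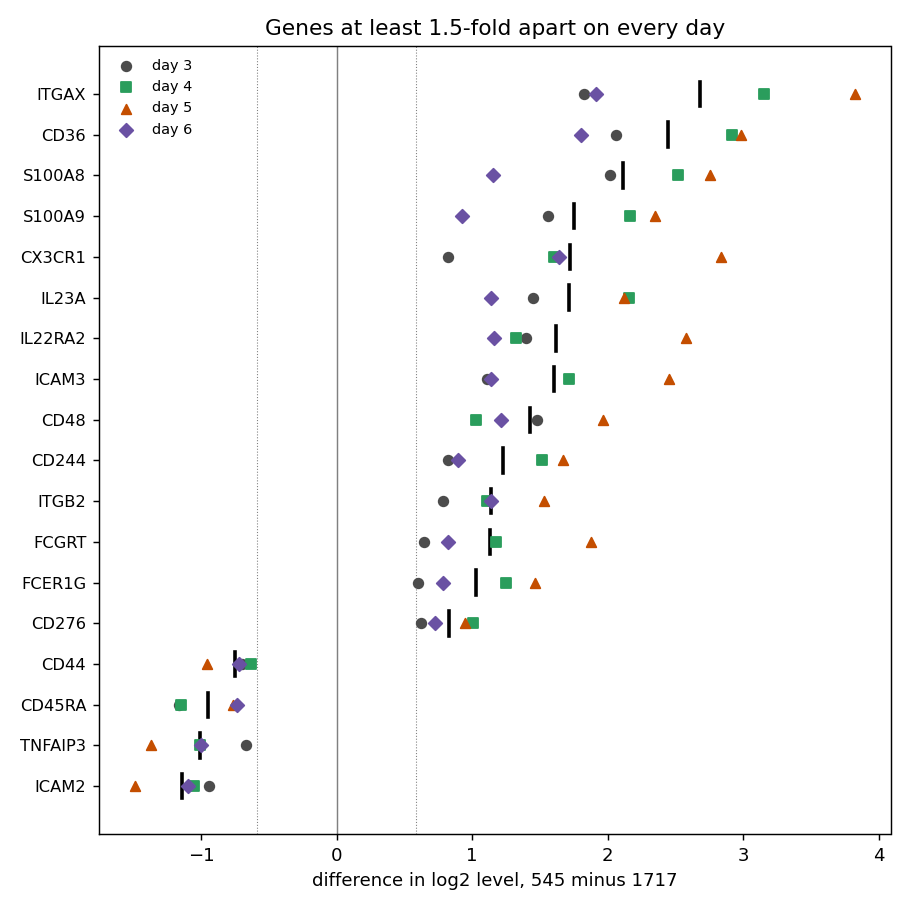
Difference in scaled log2 level, culture 545 minus culture 1717, for the 18 genes at least 1.5-fold apart on every day. Symbols mark the 4 days, black bars their mean, and dotted lines 1.5-fold; ITGAX has the widest mean difference, 2.68, and day 5 lies farthest from 0 for 15 of the 18 genes.

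Among monocyte surface genes, ITGAX, the alpha chain of the complement receptor CD11c/CD18, showed the widest difference. In culture 545 it stood at 7.32, 8.26, 8.06 and 7.20 on days 3, 4, 5 and 6, and in culture 1717 at 5.50, 5.11, 4.24 and 5.28. The lowest day of 545 was above the highest of 1717, and the mean difference was 2.68 ± 0.39 (SE, 4 days), or 6.40-fold, with a 95% interval of 1.66 to 3.70. Its adjusted p was 0.0543 in limma and 0.00109 in the trended fit. Deposited values ran from 148 to 332 in culture 545 and from 23 to 54 in culture 1717, so the lower culture was still above the negative controls. ITGB2, the beta chain CD18 with which CD11c pairs, had levels of 10.93, 11.02, 11.08 and 10.78 in 545 against 10.15, 9.91, 9.56 and 9.65 in 1717. Both chains of the receptor were thus higher in 545 on each day, ITGB2 by 1.14 ± 0.15 (2.20-fold). ITGAM, the alpha chain of the related receptor CD11b, differed by 0.37 ± 0.17, without 1 sign on every day. ITGAL, the alpha chain of LFA-1, was lower in 545 by a difference of -0.53.

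CD36, a scavenger receptor for lipids and apoptotic cells, was at 7.42, 7.62, 7.77 and 6.92 in culture 545 and at 5.35, 4.71, 4.78 and 5.12 in culture 1717. The ranges were more than a unit apart, and the difference of 2.44 ± 0.25 (5.43-fold) was wide against its spread between days, with a limma adjusted p of 0.0529. CX3CR1 gave 6.94, 7.74, 7.84 and 7.54 against 6.12, 6.14, 5.01 and 5.90, a difference of 1.72 ± 0.34 that was smallest on day 3 and largest on day 5. CD14, the co-receptor for bacterial lipopolysaccharide of myeloid cells, was near the negative controls in culture 1717 and did not overlap, at 4.86, 5.78, 5.44 and 5.02 against 4.18, 3.93, 3.91 and 4.63. Its difference was 1.11 ± 0.29, with an adjusted p of 0.0857 in limma and 0.0159 in the trended fit. The list of monocyte and macrophage markers and colony-stimulating factor receptors had 7 of 12 measured genes above the negative controls, with a median difference of 1.11 beside 0.07 for all genes above them. Of those 7, 6 were higher in 545 on every day and passed the trended fit, and none were lower. Besides the genes above, these were CSF3R, the G-CSF receptor, with a difference of 0.61 ± 0.16, and CSF2RB, the shared beta chain of the GM-CSF and interleukin-3 receptors, at 0.33 ± 0.11. CSF1R stayed at the level of the negative controls, with deposited values of 8 to 11 in 545 and 9 to 17 in 1717, and has no size.

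**Figure D2:**
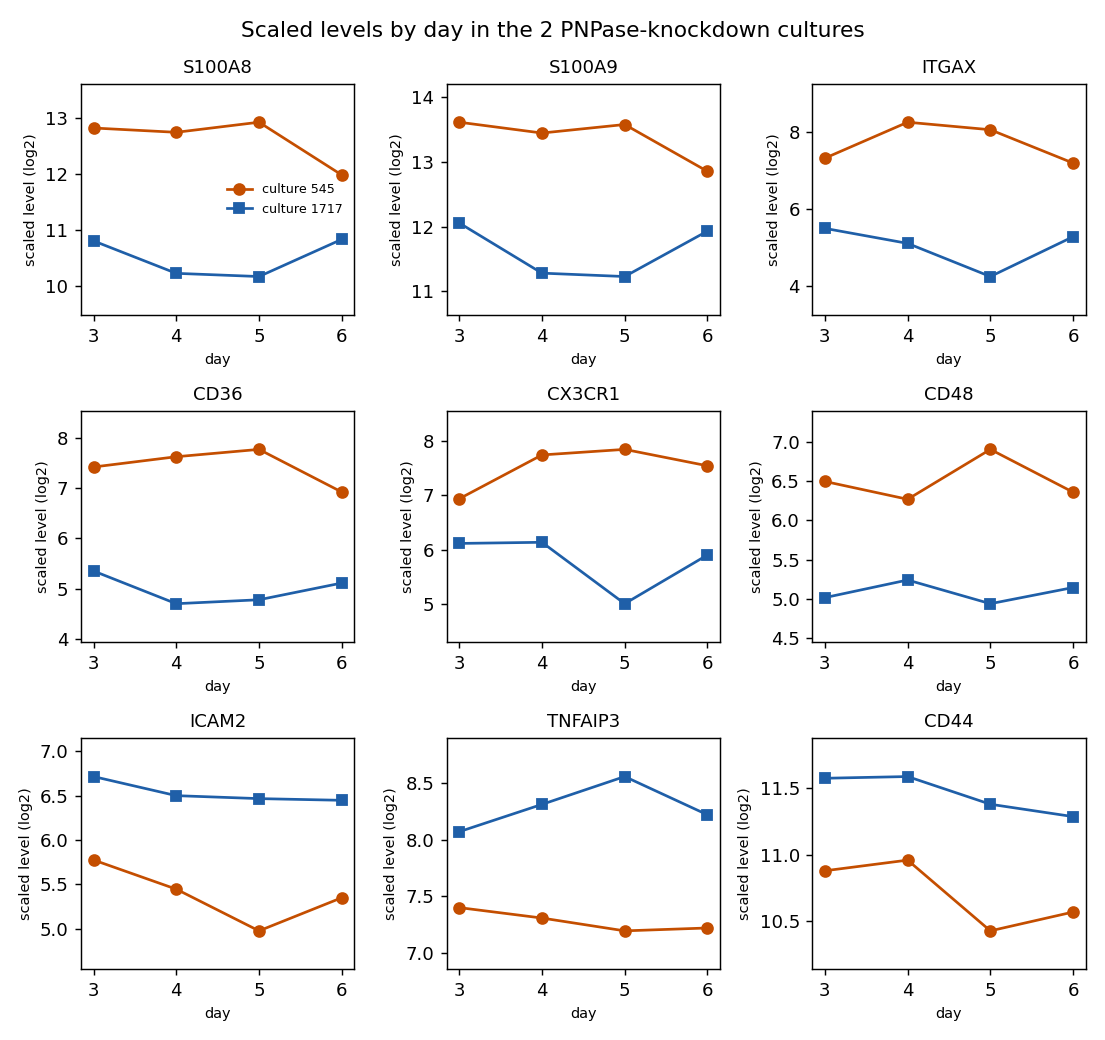
Scaled log2 level against day for 9 of the 18 genes, culture 545 as circles and culture 1717 as squares, 1 sample per point. The lines do not cross for any of the 9 genes, with 545 above for S100A8, S100A9, ITGAX, CD36, CX3CR1 and CD48 and below for ICAM2, TNFAIP3 and CD44.

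S100A8 and S100A9, which form the heterodimer calprotectin, were both higher in culture 545 on every day. S100A8 was at 12.82, 12.74, 12.92 and 11.98 in culture 545 and at 10.80, 10.22, 10.17 and 10.83 in culture 1717. S100A9 was at 13.62, 13.45, 13.58 and 12.86 in 545 and at 12.06, 11.28, 11.23 and 11.93 in 1717. For both partners 545 was lower on day 6 than on day 5 while 1717 was higher, and the gap narrowed between these days. The mean differences were 2.11 ± 0.29 (4.31-fold) for S100A8 and 1.75 ± 0.27 (3.36-fold) for S100A9, with limma adjusted p of 0.0529 and 0.0549. In deposited values S100A8 ran from 5382 to 9667 in 545 and from 1254 to 2597 in 1717. DEFB1, an antimicrobial peptide of epithelia, was the only other gene of the alarmin list above the negative controls, and was lower in 545 on every day, by a difference of -0.64 ± 0.13. The list of alarmins and antimicrobial peptides thus had 2 of 3 genes higher and 1 lower in the trended fit.

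The adhesion genes went in both directions. ICAM3, a ligand of LFA-1 on leukocytes, was at 7.31, 7.50, 7.50 and 7.01 in culture 545 and at 6.20, 5.79, 5.04 and 5.87 in culture 1717, a difference of 1.60 ± 0.26 (3.04-fold). ICAM2, another LFA-1 ligand, had the reverse order, at 5.78, 5.45, 4.98 and 5.35 against 6.71, 6.50, 6.47 and 6.45. Neither gene overlapped between the cultures, and ICAM2 differed by -1.14 ± 0.13, or 2.21-fold lower in 545, with a limma adjusted p of 0.0529. CD44, a receptor for hyaluronan carried by many leukaemic progenitors, was at 10.88, 10.96, 10.43 and 10.57 in 545 and 11.58, 11.59, 11.38 and 11.29 in 1717. Its values did not overlap either, and the difference was -0.75 ± 0.10. Of 22 integrin and adhesion genes above the negative controls, 8 passed the trended fit as higher in 545 and 4 as lower, with a median of 0.17 that became -0.02 when samples were centred on the median gene. PECAM1, a junction and leukocyte adhesion molecule, was on the higher side at 0.75.

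CD48 and CD244 are ligand and receptor of each other in the SLAM family, which NK cells and myeloid cells use to tune activation. CD48 was at 6.50, 6.27, 6.90 and 6.36 in culture 545 and at 5.02, 5.24, 4.94 and 5.14 in culture 1717. CD244 was at 8.41, 8.70, 8.66 and 8.40 in 545 and at 7.58, 7.19, 6.99 and 7.51 in 1717. Ligand and receptor were both higher in 545 with no overlap, by 1.42 ± 0.18 (2.68-fold) and 1.22 ± 0.19 (2.34-fold). CD276, the checkpoint ligand B7-H3, was higher in 545 by 0.83 ± 0.11, at 7.90, 8.49, 8.37 and 8.22 against 7.27, 7.48, 7.43 and 7.50. Of 9 ligands and receptors of immune killing above the negative controls, 4 passed the trended fit as higher and none as lower. They were CD48, CD276, LGALS3, a galectin, at 1.26, and CD70, the ligand of CD27, at 0.79. The death ligand TNFSF10, counted among the cytokines and not in this list, passed as lower at -1.31. The median of these 9 genes was 0.21 and was 0.03 when samples were centred on the median gene.

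Probes for splice forms of PTPRC, the phosphatase CD45, separated from each other. CD45RA, the long form of naive lymphocytes and early progenitors, was at 6.75, 6.29, 6.13 and 6.63 in culture 545 and at 7.91, 7.44, 6.89 and 7.37 in culture 1717, a difference of -0.95 ± 0.13. CD45R0, the shortest form, was at 10.12, 10.40, 10.27 and 9.85 in 545 and at 9.66, 9.67, 9.28 and 9.31 in 1717, a difference of 0.68 ± 0.13. Neither probe overlapped between the cultures, whereas the probe for all forms differed by 0.31 ± 0.10 and CD45RB by 0.30 ± 0.11. These 4 probes read the same gene and are not independent genes.

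FCER1G and FCGRT were the Fc receptor genes that stood apart. FCER1G, the signalling chain shared by Fc receptors of myeloid cells, was at 8.16, 8.81, 8.55 and 8.26 in culture 545 and at 7.56, 7.56, 7.09 and 7.47 in culture 1717, a difference of 1.02 ± 0.18. FCGRT, the neonatal Fc receptor that recycles immunoglobulin and albumin, was at 7.73, 7.89, 7.41 and 7.06 against 7.09, 6.71, 5.53 and 6.24. It was higher in 545 on each day, by 1.13 ± 0.23, but day 6 of 545 lay just below day 3 of 1717, which made it the 1 gene of the 18 whose ranges overlapped. Of 7 Fc receptor genes above the negative controls, these 2 passed the trended fit as higher. SYK, a kinase downstream of FCER1G, passed as lower at -0.23. The list's median was -0.02 and was 0.04 after scaling on the positive controls.

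Among cytokine genes, IL23A, the p19 chain of interleukin-23, was at 7.56, 7.15, 7.32 and 6.72 in culture 545 and at 6.12, 5.00, 5.21 and 5.58 in culture 1717. The ranges did not overlap, and the difference was 1.71 ± 0.22 (3.28-fold), with a limma adjusted p of 0.0529. IL22RA2, a soluble binding protein for interleukin-22, had deposited values of 12, 18, 41 and 33 in 545 and of 3, 8, 6 and 15 in 1717, where its mean was at background, so the size of its difference is not given. TNFSF10, the death ligand TRAIL, was at 6.17, 5.97, 5.88 and 6.72 in 545 and at 7.67, 7.71, 7.34 and 7.25 in 1717. Its difference of -1.31 ± 0.23 was the most negative among genes above the negative controls, although day 6 kept it outside the 1.5-fold level at 0.53. Of 12 cytokine genes above the negative controls, 3 passed the trended fit as higher, among them TNFSF13B, the B cell survival factor BAFF, at 0.64 ± 0.13, and TNFSF10 alone as lower. The receptor chain IL2RG, shared by several interleukin receptors, was higher in 545 by 1.19 ± 0.22.

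TNFAIP3, the ubiquitin-editing enzyme A20 that restrains NF-kappaB signalling and is itself induced by it, was at 7.40, 7.31, 7.19 and 7.22 in culture 545 and at 8.07, 8.31, 8.56 and 8.22 in culture 1717. The culture 545 values were nearly flat, those of 1717 peaked on day 5, and the difference was -1.01 ± 0.14, or 2.02-fold lower in 545. Of 21 NF-kappaB subunits and regulators above the negative controls, 3 passed the trended fit as higher, CARD9, MAP4K1 and IKBKE, at 0.71, 0.57 and 0.37. TNFAIP3, NFKB1, the p50 precursor, at -0.46 and MAP4K4 at -0.27 passed as lower. The median over the list was -0.08, beside 0.07 for all genes.

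Promoter sequences of 3 of the 18 genes are shown because they stand for the alarmins, the surface ligands and the NF-kappaB regulator that separated the cultures. They are the 250 bases before the start in the RefSeq promoter table for GRCh38.p14, 5′ to 3′ on the strand of the gene, with matches on either strand to the PU.1 core GAGGAA, the C/EBP core TTNNGNAA and the NF-kappaB motif (GGG, any 3 bases, then TTCC) in capitals. PU.1 and C/EBP proteins are the main transcription factors of myeloid maturation. S100A9 (chr1:153357604-153357853, plus strand) has a PU.1 match at -208 to -203 and a C/EBP match at -173 to -166. CD48 (chr1:160711823-160712072, minus strand) has a C/EBP match at -28 to -21. The TNFAIP3 window (chr6:137867009-137867258, plus strand) lies inside the annotated gene, which begins at 137866349, so the start used is an internal one. It has NF-kappaB matches at -67 to -58 and -55 to -46 and a C/EBP match at -70 to -63 that overlaps the first of them.
S100A9: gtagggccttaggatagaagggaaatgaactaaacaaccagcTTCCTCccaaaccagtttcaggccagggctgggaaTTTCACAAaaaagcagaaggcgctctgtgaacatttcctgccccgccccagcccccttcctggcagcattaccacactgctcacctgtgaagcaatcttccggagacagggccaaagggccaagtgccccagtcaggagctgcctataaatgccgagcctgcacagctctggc
CD48: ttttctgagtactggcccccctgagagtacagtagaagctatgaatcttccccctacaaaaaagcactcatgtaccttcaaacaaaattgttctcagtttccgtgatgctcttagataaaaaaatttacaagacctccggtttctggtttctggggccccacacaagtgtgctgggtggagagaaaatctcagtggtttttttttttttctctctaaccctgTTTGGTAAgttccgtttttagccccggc
TNFAIP3: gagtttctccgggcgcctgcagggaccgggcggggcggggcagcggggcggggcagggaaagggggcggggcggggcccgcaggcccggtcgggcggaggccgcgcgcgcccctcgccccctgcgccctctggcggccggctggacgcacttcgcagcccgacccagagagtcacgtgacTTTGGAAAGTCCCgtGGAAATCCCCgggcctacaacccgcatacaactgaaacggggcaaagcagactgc

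Of the 18 genes, 14 had a window in that table and 9 had exactly 1. Among those 9 windows 1 held the PU.1 core, 6 the C/EBP core and 1 the NF-kappaB motif. Over all 35116 windows the shares were 23.6%, 33.2% and 5.67%. A match describes the letters of the window and does not show that a factor binds there.

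Transcription factors of blood cell development leaned to culture 1717. Of 9 such genes above the negative controls, 8 had a negative difference, with a median of -0.28. On every day 5 were lower in 545 and none were higher. Of all 346 genes above the negative controls, 147 had a negative difference and 87 (25.1%) were lower on every day. All 9 transcription factor genes overlapped between the cultures, whereas 25.1% of the 346 did not. IKZF1, GFI1 and RUNX1 passed the trended fit as lower in 545, at -0.76 ± 0.10, -0.31 ± 0.10 and -0.27 ± 0.10. IKZF1 is the lymphoid and myeloid regulator Ikaros, and GFI1 is a transcriptional repressor that granulocytic differentiation requires. RUNX1 is required for haematopoiesis and often altered in leukaemia. CEBPB, a C/EBP protein of monocytes, differed by 0.12 ± 0.14 and turned to -0.07 when samples were centred on the median gene. Of 5 stem and progenitor genes above the negative controls, CD44 and CXCR4, the bone-marrow homing receptor, at -0.56 ± 0.14 passed the trended fit as lower. Apart from IKZF1 and ZBTB16, whose mean in culture 545 was under the limit of the negative controls, the 9 transcription factor genes differed by less than the 0.39 seen for a housekeeping gene after scaling.

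Interferon-induced genes did not go one way. Of 12 above the negative controls, BST2, MX1 and STAT2 passed the trended fit as higher in 545, and SOCS1 and TNFSF10 were among those that passed as lower. MX1, an antiviral GTPase, was at 6.19, 6.48, 5.88 and 5.53 in culture 545 and at 5.50, 5.58, 5.14 and 5.43 in culture 1717, a difference of 0.61 ± 0.16 that had shrunk to 0.10 by day 6. IRF7, the interferon amplifier, had the reverse order, with a difference of -0.53 ± 0.17 that did not pass (limma adjusted p of 0.131, and 0.0723 in the trended fit). In nucleic acid sensing, TICAM1, the adaptor TRIF, at 1.05 ± 0.23, IRF5 at 0.69 and IKBKE at 0.37 were the 3 of 12 genes that passed the trended fit, all as higher in 545. The median of that list was 0.09, beside 0.07 for all genes above the negative controls, of which 25.1% passed as higher. The cytosolic sensor IFIH1 and the adaptor TMEM173 (STING) had differences of 0.04 and -0.02. Toll-like receptors and adaptors had 5 of 17 genes passing as higher, TLR4, MYD88 and TOLLIP besides CD14 and TICAM1, and IRAK1 as lower. The inflammasome and interleukin-1 list had 5 of 12 passing as higher and none as lower, CASP1, the protease that activates interleukin-1 beta, at 0.57 ± 0.12 and NLRP3, its sensor, at 0.38 ± 0.09 among them.

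Antigen presentation differed little. Of 14 MHC class I pathway genes, PSMB8, an immunoproteasome subunit, at 0.34 and PSMB5 at 0.31 passed the trended fit, both as higher in 545. Of 8 MHC class II genes above the negative controls, HLA-DPA1 alone passed, at 0.75 ± 0.19, while HLA-DRA differed by 0.20 ± 0.24 and CD74, the invariant chain, by 0.16 ± 0.13. CD74 turned to -0.03 when samples were centred on the median gene. IL32, IL8 and CCND3 differed by -0.13 ± 0.16, 0.48 ± 0.26 and 0.19 ± 0.10, and none of the 3 passed either fit.

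Chemokine receptors and enzymes of myeloid cells held further wide differences. ARG1, which degrades arginine, was at 7.44, 6.82, 7.17 and 6.31 in culture 545 and at 5.99, 4.21, 4.30 and 5.72 in culture 1717, a difference of 1.87 ± 0.43 that was smallest on day 6. PTAFR, the receptor for platelet-activating factor, at 1.19 ± 0.22, CXCR2, a neutrophil chemokine receptor, at 0.73, and the chemokine CCL23 at 1.27 ± 0.31 were on the same side. Of 9 chemokine and chemoattractant receptors above the negative controls, 5 passed the trended fit as higher in 545 and CXCR4 as lower, with a median of 0.60. NOS2, the inducible nitric oxide synthase that competes with arginase for arginine, was lower in 545, at 5.10, 4.93, 4.82 and 5.59 against 6.12, 6.76, 6.30 and 6.12. Its values did not overlap, with a difference of -1.21 ± 0.24. XBP1, a factor of the unfolded protein response, was lower in 545 as well, at 9.06, 9.24, 8.84 and 9.15 against 9.53, 10.11, 9.80 and 9.86, a difference of -0.75 ± 0.12.

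**Figure D3:**
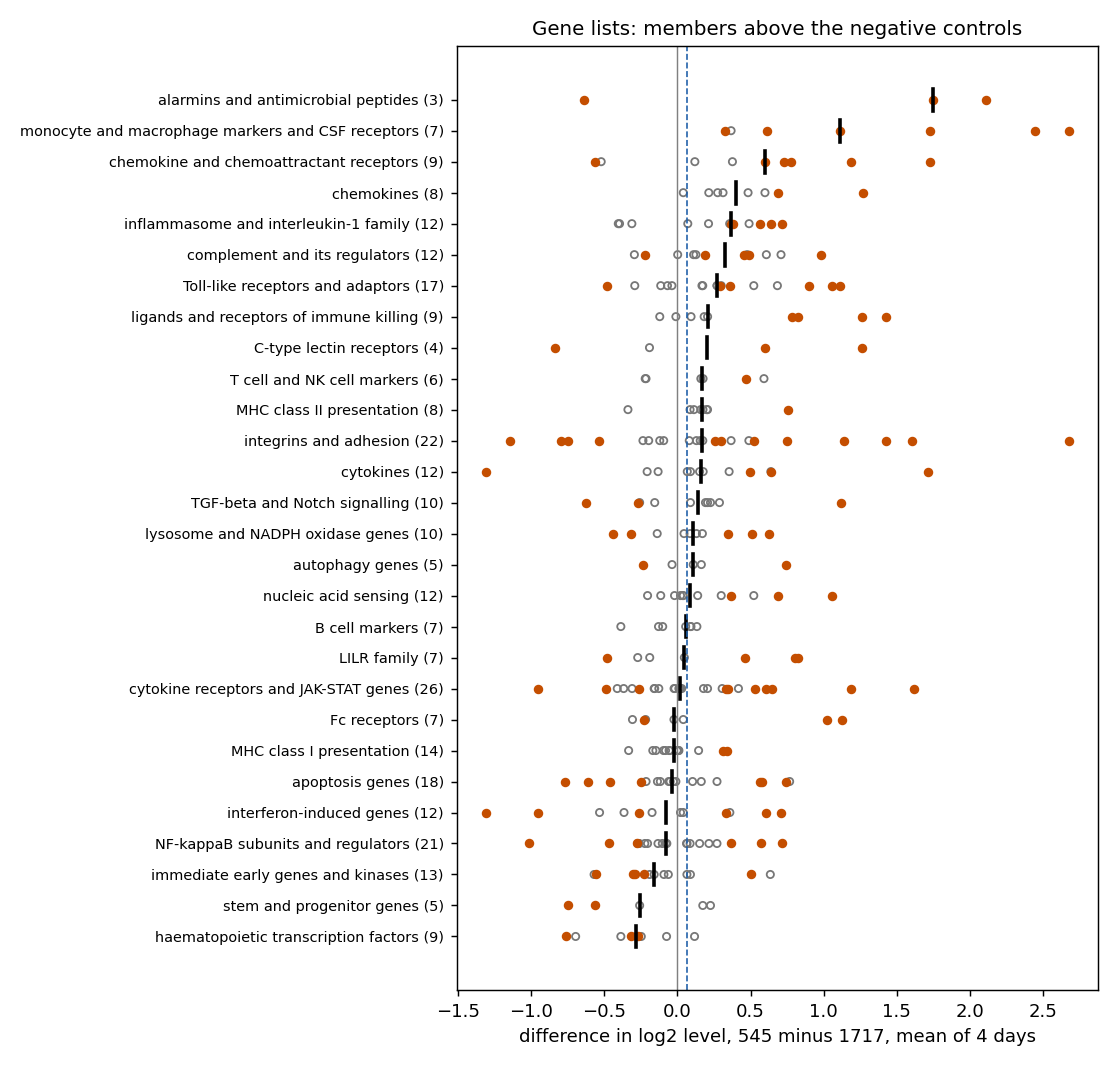
Mean difference in scaled log2 level, 545 minus 1717, of each member above the negative controls in 28 gene lists, with the number of such members in brackets. Filled points passed the trended limma fit, open points did not, black bars are list medians and the dashed line is the median of all genes above the negative controls (0.07); the lists of alarmins and of monocyte markers have the highest medians, 1.75 and 1.11.

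The remaining lists had medians between -0.16 and 0.40, and B cell markers had 0 of 7 genes passing the trended fit. Of the list members above the negative controls, apoptosis genes split 3 higher and 4 lower of 18 in that fit. Complement genes split 4 and 1 of 12, and cytokine receptor and JAK-STAT genes 7 and 3 of 26. LILR genes split 3 and 1 of 7, C-type lectin receptors 2 and 1 of 4. Lysosome and NADPH oxidase genes split 3 and 2 of 10. Immediate early genes and kinases split 1 and 4 of 13, and TGF-beta and Notch genes 1 and 2 of 10. Autophagy genes split 1 and 1 of 5, chemokines 2 and 0 of 8, and T and NK cell markers 1 and 0 of 6. Over all genes above the negative controls, 25.1% passed as higher and 13.3% as lower. When samples were centred on the median gene, the medians of the lysosome, cytokine, nucleic acid sensing, autophagy, LILR, JAK-STAT, MHC class II, TGF-beta, T cell and B cell lists turned below 0. BCL2, the survival factor, at -0.61 and CASP2 at -0.77 were lower in 545, and CASP8, the initiator caspase, at 0.58 was higher.

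Summed monocyte and granulocyte markers were higher in culture 545, sums that mostly repeat CD36, CX3CR1, S100A8 and S100A9, and the sums for other blood cell types overlapped. Deposited values summed over 7 monocyte and macrophage markers were 332 to 651 in culture 545 and 124 to 208 in culture 1717. Of these, CD14, CD36 and CX3CR1 were above the negative controls. FCGR1A, also a listed marker, was left out of the sum because its probe is named FCGR1A/B. That probe was at 5.83, 6.41, 6.18 and 6.21 in 545 and at 6.12, 6.84, 6.40 and 6.14 in 1717. It was lower in 545 on every day but day 6. Granulocyte markers summed to 15727 to 25390 against 4503 to 8555, with S100A8, S100A9 and CXCR2 above out of 6. On day 3 in 545, S100A8 and S100A9 gave 6718 and 11674 of that sum and CXCR2 478. CTSG, a protease of neutrophil granules that is not in the marker list, was lower in 545 on every day, with a difference of -0.44 ± 0.11. Markers of T and NK cells summed to 554 to 883 against 469 to 880, with CD4 and NCAM1 above out of 9, and B cell markers to 76 to 98 against 73 to 93. Dendritic cell markers summed to 27 to 47 against 29 to 61, and megakaryocyte markers to 120 to 166 against 74 to 224. The stem cell markers measured, 2 of 5, were at the level of the negative controls, with sums of 6 to 16 and 9 to 18. No marker was at 0 in every sample.

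The cultures were farthest apart on days 4 and 5. Over the genes above the negative controls, the SD of the daily differences was 0.53 on day 3, 0.66 on day 4, 0.76 on day 5 and 0.47 on day 6. At least 2-fold differences on a single day numbered 23, 39, 49 and 19 genes in the same order, of which 15, 31, 42 and 16 were higher in 545. Of the 18 genes, 15 had their widest difference on day 5, 2 on day 4 and 1 on day 3. The differences of days 4 and 5 correlated across genes at 0.89 (Pearson) and those of days 3 and 6 at 0.45, as a description over 346 genes that share samples. Whether the distance changed steadily was asked with a line on day for each culture. Limma called 0 of 594 genes (0%) for a difference in slope, with 41 (6.90%) below an unadjusted p of 0.05 and a smallest adjusted p of 0.186. Among genes above the negative controls with a higher slope in 545, TGFBI, an extracellular matrix protein, had the smallest p. Its change per day was -0.08 in 545 and -0.71 in 1717 (difference 0.63 ± 0.19, limma adjusted p of 0.548). CR1, the complement receptor CD35, went the other way, with -0.23 per day in 545 and 0.20 in 1717 (difference -0.44 ± 0.11, limma adjusted p of 0.399). BTLA, CISH, CASP10 and IL1RN, and on the other side IRAK2, IRF1, CD82 and ICAM4, came next, and none of them passed.

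The SUV3 cultures gave a measure of how far a pair of cultures of another knockdown stood apart. Since which SUV3 culture should face which PNPase culture is arbitrary, a gene was called only where the PNPase difference exceeded the SUV3 difference in both orientations. Limma on all 16 samples called 2 of 594 genes (0.337%), CD36 and XBP1. CD36 was at 6.33, 6.42, 5.80 and 5.94 in SUV3 culture 1595 and at 5.90, 5.97, 6.35 and 6.18 in culture 1727, so all 8 values lay between those of the PNPase cultures. Its PNPase difference exceeded the SUV3 one by 2.42 ± 0.36 and 2.46 ± 0.36 in the 2 orientations, with adjusted p of 0.00334 and 0.00924 (limma). XBP1 exceeded it on the lower side by -0.56 ± 0.17 and -0.95 ± 0.17, with adjusted p of 0.0496 and 0.0257 (limma). Without day 4, 5 or 6 neither gene was called, and without day 3 the count was 3. XBP1 was also lost with no scaling, with scaling on the positive controls and with no replicate block, at limma adjusted p of 0.331, 0.713 and 0.121. CD48, at 3.60 to 4.70 in 1595 and 3.95 to 4.48 in 1727, came next with a larger adjusted p of 0.0541 (limma) and did not pass. CX3CR1, FCGRT and IL2RG, and on the lower side TNFSF10, SMAD5, MAPK11 and TAGAP, did not pass either.

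Of the 18 genes, 11 also had ranges that did not overlap within the SUV3 pair. The share of the 346 genes without overlap in that pair was not counted, so no excess can be read from this. By means, 11 of the 14 higher in 545 had a higher mean in SUV3 culture 1727 than in 1595, and all 4 lower in 545 were lower in 1727. S100A8 was at 10.55 to 10.79 in 1595 and 12.15 to 13.58 in 1727, ranges close to those of cultures 1717 and 545. ITGAX was at 5.48 to 6.58 in 1595 and 7.15 to 8.48 in 1727. Across the 346 genes, the difference 545 minus 1717 and the difference 1727 minus 1595 correlated at 0.44 (Pearson) and 0.39 (Spearman), and 62.7% of genes had the same sign. These are descriptions across genes, with the SUV3 pair turned after its values were seen, and the 2 pairs share no samples.

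**Figure D4:**
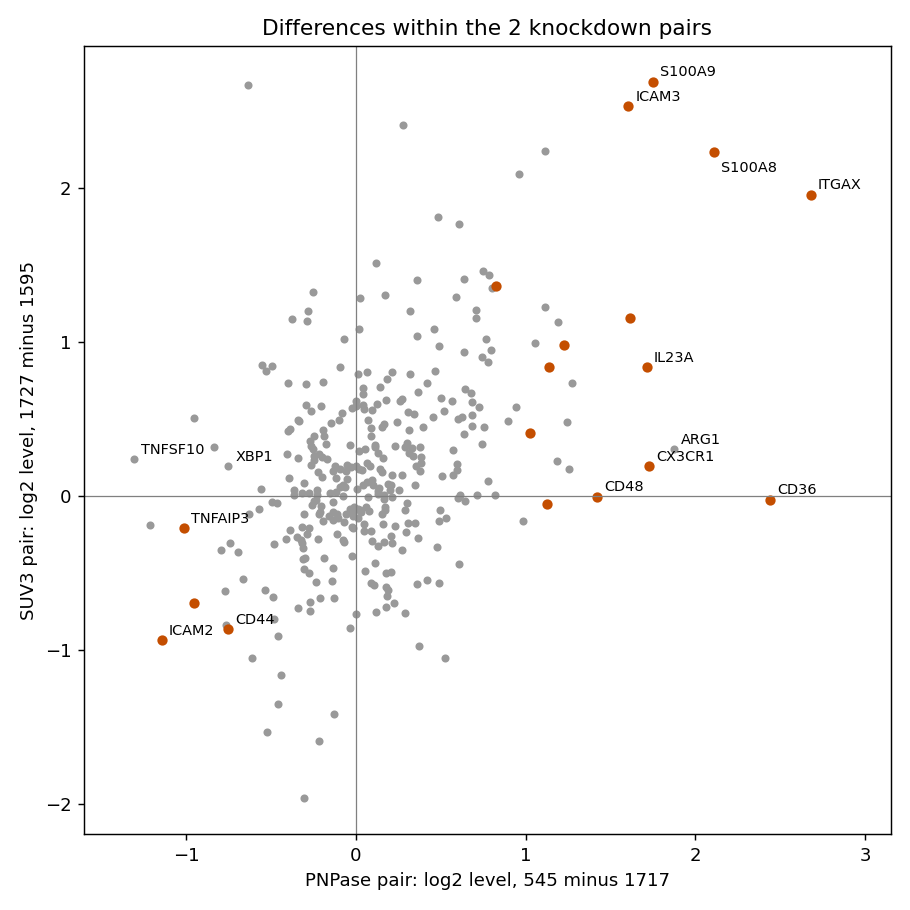
Difference in mean scaled log2 level within the PNPase pair (545 minus 1717, horizontal) against that within the SUV3 pair (1727 minus 1595, vertical), 1 point for each of the 346 genes above the negative controls, with the 18 genes at least 1.5-fold apart on every day filled in orange. S100A8, S100A9, ICAM3 and ITGAX lie far from 0 on both axes, whereas CD36 and CD48 lie near 0 on the SUV3 axis. CD48 was close to the negative controls in both SUV3 cultures.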

How the data were processed

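Per the labels' protocols, the nCounter Human Immunology v2 panel was read on total RNA. The deposited values are a score. That the authors corrected them for unwanted variation is known only from a table's name, and the sources used here do not say how. The values are whole numbers with unequal totals, and both tables hold the same values for 594 genes. Each sample was divided by the geometric mean of 15 housekeeping genes, centred over samples, and log2(value + 1) was taken. Genes count as above the negative controls where their mean over the 8 PNPase samples exceeds the mean plus 2 SD of the 8 negative probes.

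Limma 3.58.1 (lmFit, eBayes) in R 4.3.3 was fitted to all 594 genes with day as a block, two-sided, with Benjamini-Hochberg adjustment at 0.05. The days pair the samples, per the labels: deviations of same-day samples from their culture means correlated across genes at 0.78, 0.56, 0.45 and 0.32 on days 3 to 6. All fits were tested on simulated data. Genes named are those at least 1.5-fold apart on every day, a fixed list of 14 genes, the 5 on each side with the smallest p in the slope and SUV3 comparisons, and list members. The planned rule for called genes named none, so list members and other genes outside these were chosen after their values were seen. The comparison, the gene lists and the rules were chosen with earlier results of these data known. Probe symbols matched the RefSeq gene table (GRCh38.p14) for 565 current and 12 older names. ARG1 and a gene outside the complement system were taken out of 2 lists they did not belong to, after their values were seen.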

Additional observations from a re-analysis of the deposited data

Results flagged for a closer look

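CD36 and XBP1 were the genes whose difference between the PNPase cultures was larger than that between the SUV3 cultures by a test of the difference itself. For CD36 the smaller excess was 2.42 and was carried by all 4 days, with the 545 values above and the 1717 values below those of both SUV3 cultures. For XBP1 it was -0.56, with a larger limma adjusted p of 0.0496. Neither gene was called when day 4, day 5 or day 6 was left out. XBP1 was also lost with no scaling, with scaling on the positive controls and with no replicate block.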

How the results depend on the processing

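The count of 0 called genes for 545 against 1717 stayed at 0 when any 1 day was left out (0 to 0) and became 30 with no scaling, 32 with scaling on the positive controls, 45 with samples centred on the median gene, 89 with a pseudocount of 8, 51 with the negative controls subtracted, 126 with weak genes left out of the test, 136 in the trended fit, 33 with no replicate block and 55 with all 16 samples. Settings added after the data were seen combined the trended fit with other choices. It called 95 genes with no scaling, 82 with positive controls 155 with median centring, 136 without day 3, 39 without day 4, 70 without day 5 and 135 without day 6. The 18 genes at least 1.5-fold apart were all called in each of these added fits, except 17 without day 4. Since they were chosen on the same values, these calls add no separate support. Genes at least 2-fold apart every day numbered 2 with median centring (CD36 and ITGAX) and 7 to 13 without 1 day, 13 without day 3 or day 6. Genes called as farther apart than in the SUV3 pair numbered 1 with no scaling, 1 with positive controls, 5 with median centring, 7 with a pseudocount of 8, 12 with weak genes left out, 9 in the trended fit, 6 with no replicate block and 0 to 3 without 1 day. For IL32, the difference was -0.238 to 0.0293 without 1 day and turned sign without day 3, and under median centring it became -0.0290 for CD74 and -0.0714 for CEBPB. The difference in slope was 0 genes under each alternative. Of 665 single-gene alternatives in 49 results, 465 kept direction and side of the threshold, 188 newly passed, 9 no longer passed and 3 turned. The cause of these shifts was not tested. Negative controls limit what can be said of IL22RA2 and CSF1R.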

Other observations

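Several genes outside the lists also passed the trended fit. CD1D, which presents lipids to NKT cells, at 0.96 ± 0.20, was higher in culture 545 and passed the trended limma fit. PPARG, the lipid-sensing nuclear receptor, passed it at 0.94 ± 0.32 but had a difference of -0.08 on day 3. TCF4, a transcription factor of plasmacytoid dendritic cells, at -0.74 ± 0.14 and NFATC2, the calcium-regulated factor NFAT1, at -0.67 ± 0.11 were lower in 545 and passed it, as did the maturation marker CD83 at -0.49 ± 0.10. All were chosen after their values were seen.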
